A study of Oryctolagus cuniculus with 6 samples.

Results

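The fibrillar collagen chains COL1A1, COL1A2, COL3A1, COL5A1, COL5A2, COL5A3 and COL11A1 were examined in smooth muscle cells of the rabbit basilar artery. A probe was taken as a member when its gene name was one of these symbols or its description named collagen type I, III, V or XI with that chain. Probes were found for 6 of these genes, among 9999 genes named on the arrays. They numbered 24 of 43603 probes: 1 for COL1A1, 11 for COL1A2, 5 for COL3A1, 4 for COL5A1, 2 for COL5A2 and 1 for COL5A3. COL11A1 had no probe under the rule and has no value here. The COL1A1 probe came from an expressed-sequence clone annotated to the chain.

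The animals were female New Zealand White rabbits, killed on day 5. In the ligated group (3 rabbits) both common carotid arteries were tied to raise flow through the basilar artery. In the sham group (3 rabbits) the same arteries were exposed and not tied. Cells of both groups were loosened with elastase and collagenase and released by trituration, with no sort for a cell type in the labels, and each group was read on 3 one-colour arrays.

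Fibrillar collagens are the rope-like proteins that give an artery its tensile strength. Each molecule is a triple helix of chains: type I combines COL1A1 and COL1A2 chains, type III is made of COL3A1 alone, and type V combines COL5A1 with COL5A2 and sometimes COL5A3. Type V starts and limits the width of type I fibrils, and type XI is found mainly in cartilage. Arterial smooth muscle cells and adventitial fibroblasts both make these chains. The collagenase used to free the cells cuts the protein, and the arrays read messenger RNA.

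The probes below are shown because the comparison of chains rests on reading each one separately. They are 60 bases long, given 5′ to 3′ in the sense of the messenger RNA, and are named by chain and by the first base in the transcript record they were designed on. Capitals mark the bases that COL1A2 at 3910 and COL3A1 at 4207 have in common, and the other probes have no capitals.
COL1A1 at 352: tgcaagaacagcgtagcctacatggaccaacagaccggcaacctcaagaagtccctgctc
COL1A2 at 69: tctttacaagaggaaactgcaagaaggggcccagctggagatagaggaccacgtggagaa
COL1A2 at 3541: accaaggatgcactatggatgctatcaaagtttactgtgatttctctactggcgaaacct
COL1A2 at 3910: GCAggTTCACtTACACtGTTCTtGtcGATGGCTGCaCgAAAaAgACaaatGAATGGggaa
COL3A1 at 4207: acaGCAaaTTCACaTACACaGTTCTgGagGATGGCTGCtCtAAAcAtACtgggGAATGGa
COL3A1 at 4332: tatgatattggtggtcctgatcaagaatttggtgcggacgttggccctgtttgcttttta
COL5A1 at 495: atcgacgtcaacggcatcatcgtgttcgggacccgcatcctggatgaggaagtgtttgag
COL5A3 at 5205: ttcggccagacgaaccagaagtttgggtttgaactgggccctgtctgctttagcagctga

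The probe pair in capitals was the most alike among the 204 pairs of probes to different chains. It had 41 identical bases of 57 that overlap, and no such pair shared an unbroken run of more than 12 bases (median 5). Probes to the same chain overlap far more: 15 pairs shared a run of 40 bases or more. When probes that share a run of 15 bases were merged, the 24 probes covered 12 separate stretches of sequence, of which COL1A2 had 4, COL3A1, COL5A1 and COL5A2 had 2 each, and COL1A1 and COL5A3 had 1 each. Probes of 1 chain were taken as repeated readings of that chain and were not counted as replicates. The COL5A1 probe at 495 was designed on a different transcript record from the other COL5A1 probes.

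On the oryCun2 rabbit genome used by the files, the COL1A1 probe lies at chr19:37489117-37489176 on the plus strand. The COL1A2 probes lie on the minus strand of chromosome 10; the probe at 3910 spans chr10:34498700-34499480, which is 781 bases for a probe of 60, so that it crosses an intron. COL3A1 at 4207 likewise crosses an intron, at chr7:129339773-129340563 on the plus strand, a span of 791 bases. The COL3A1 and COL5A2 probes are neighbours on chromosome 7, on opposite strands, with 18440 bases between the nearest ones. The files give no position for any COL5A1 probe or for the COL5A3 probe.

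Signals are log2 intensities relative to the 75th percentile of their array, so 0 is the level of that percentile and a difference of 1 is a doubling. They have no common zero between probes, and only differences between arrays are compared. Between 58.7% and 63.7% of probes were well above background per array. Slide 1 carried the sham group and slide 2 the ligated group, which means that an effect of the slide and one of the ligation cannot be told apart. Sham 1 stood apart from its group: its log2 values differed from those of sham 2 with an SD of 1.28 over tested probes, against 0.918 from ligated 2. Sham 2 and sham 3 were much closer to each other (0.381, Pearson r 0.991). Whether these 2 arrays are independent was not tested, and 1 alternative fit averaged them. Ligated 3 was nearest to ligated 2 (0.937), but it was nearer to sham 2 (0.957) than to ligated 1 (1.02). Each main result is therefore also given without sham 1 and ligated 3, a choice made after the data were seen.

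All 5 chains measured in both groups were higher in the ligated rabbits, and COL5A3 was read above background there alone. Each of the 23 collagen probes well above background on all 6 arrays passed the test at an adjusted p under 0.05 (limma, Benjamini-Hochberg over 27408 tested probes), all 23 in the upward direction. Over all tested probes 8.36% passed, and 5.71% passed upward. The 2 groups did not overlap at any of the 23 probes, whereas 34.7% of all tested probes had groups without overlap and 17.6% had every ligated array above every sham array. The log2 changes of the 23 ran from 1.20 to 3.02 with a median of 1.91, beside a median of 0.01 over all tested probes. The COL5A3 probe also passed the test, but it passed the filter on dim probes only through the ligated arrays, so that it had to differ. Its change is given against a bound on the sham signal. A higher level in these samples could reflect more cells that make collagen or more RNA in each cell, and the 2 cannot be told apart in bulk RNA.

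**Figure D1:**
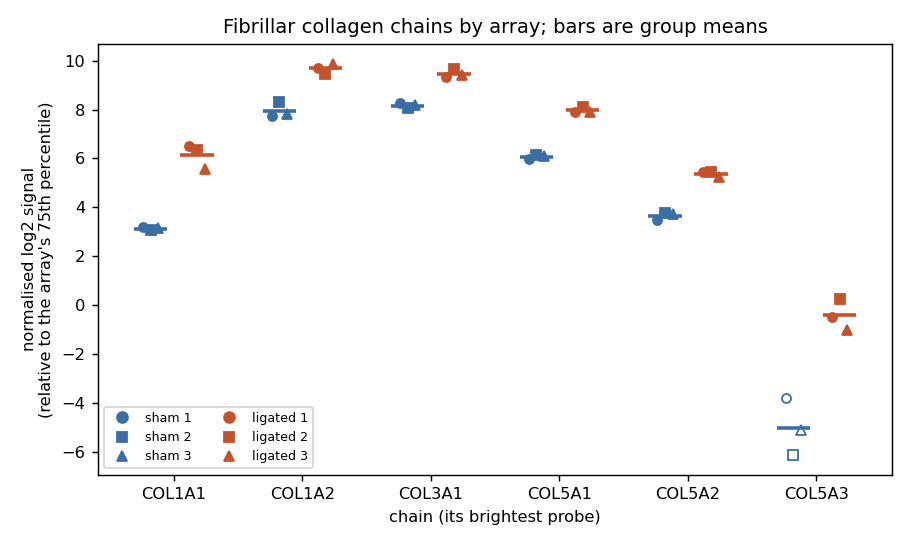
Normalised log2 signal (vertical axis, relative to the 75th percentile of the array) of the brightest probe of each chain on the 3 sham arrays (blue) and 3 ligated arrays (red), with bars at group means. Open symbols were not well above background. Every ligated array lies above every sham array at each of the 5 chains measured in both groups. COL5A3 had to differ to be tested, so its gap is no support. Heights are not comparable between chains.

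Of the type I chains, COL1A1 showed the larger rise. Its single probe read 3.18, 3.07 and 3.14 in sham rabbits, against 6.52, 6.34 and 5.59 in ligated rabbits. The sham values were nearly equal (mean 3.13 ± 0.05, SD, n = 3), and ligated 3 was the lowest of its group (mean 6.15 ± 0.50, SD, n = 3). The change was 3.02 ± 0.28 (SE), an 8.12-fold difference with an adjusted p of 0.00374. No second probe was there to set beside it.

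COL1A2, the other chain of type I, rose at each of its 11 probes. The brightest probe, at 4065, read 7.73, 8.30 and 7.83 in sham and 9.72, 9.46 and 9.89 in ligated. At this probe the lowest sham array was sham 1 and the highest ligated array was ligated 3, the reverse of their places for COL1A1. The change was 1.74 ± 0.23 (SE), 3.33-fold, with an adjusted p of 0.0102. Across the 11 probes the fold ran from 3.33 to 5.35. Sham 1 was the lowest sham array at all 11, but ligated 3 was the lowest ligated array at 8 and the highest at 2.

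The size of the COL1A2 change was then followed along the transcript. At 69, near the start of the transcript, the probe read 0.48, 1.01 and 0.87 in sham and 3.23, 3.03 and 2.85 in ligated, a change of 2.25 ± 0.22 (SE). The 5 probes that start at consecutive bases from 3541 to 3545 overlap almost wholly, and their changes fell between 2.33 and 2.42. The 5 probes from 3910 to 4065 gave 1.74 to 2.24. At 3910 the signals were 7.26, 7.99 and 7.75 in sham and 9.68, 9.63 and 9.73 in ligated. The ligated arrays there differed by little (SD 0.05, n = 3), and the sham arrays by more (SD 0.37, n = 3). Over the 11 probes the change went down as the mean signal went up (Pearson r -0.67, a description, since the probes share 1 transcript and the same arrays). Whether the brighter probes read a smaller part of the difference was not tested.

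**Figure D2:**
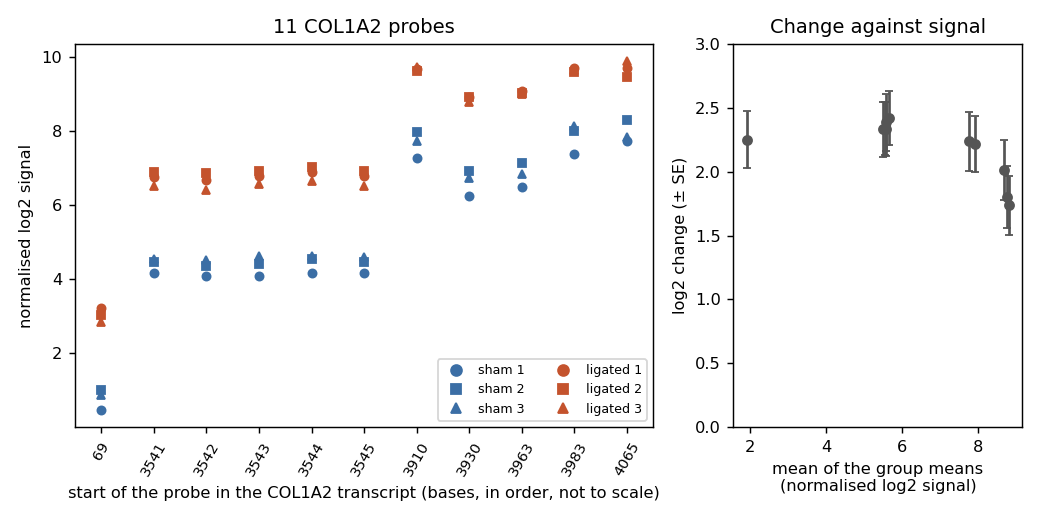
Left, normalised log2 signal of the 11 COL1A2 probes in order of their start in the transcript, on 3 sham arrays (blue) and 3 ligated arrays (red). Right, log2 change (ligated minus sham, ± SE of the fit) against the mean of the group means. The groups are apart at every probe, and the changes lie between 1.74 and 2.42.

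COL3A1, the only chain of type III, had the smallest change of the 5 chains measured in both groups. Its brightest probe, at 4332, read 8.26, 8.06 and 8.17 in sham and 9.33, 9.67 and 9.44 in ligated. The groups were narrow (8.16 ± 0.10 and 9.48 ± 0.17, SD, n = 3 each) and did not overlap. The change was 1.31 ± 0.19 (SE), 2.49-fold, with an adjusted p of 0.0117. At 4207, the probe most like a COL1A2 probe, the sham signals were 7.03, 6.69 and 6.76 and the ligated signals 8.07, 8.44 and 8.08. That change, 1.37 ± 0.20 (SE), lay within the range of 1.20 to 1.58 over the 5 COL3A1 probes.

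The array order within groups differed between COL3A1 and COL1A2. Sham 1 was the highest sham array at all 5 COL3A1 probes and the lowest at all 11 COL1A2 probes. Ligated 2 was the highest ligated array at all 5 COL3A1 probes. Over the 24 probes, ligated 3 was the lowest ligated array at 17 and ligated 2 the highest at 17. The COL3A1 call was also the least firm of the chains. Without sham 2 its adjusted p was 0.0685 and without sham 3 it was 0.0658, with changes of 1.26 and 1.32. For COL1A2 the adjusted p was 0.0566 without sham 3, with a change of 1.68.

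The type V chains COL5A1 and COL5A2 rose at all 6 of their probes. COL5A1, present in nearly every type V molecule, read 6.0, 6.12 and 6.12 in sham and 7.91, 8.12 and 7.89 in ligated at its brightest probe, at 2005. The values within a group were close together and the groups far apart. The change was 1.89 ± 0.17 (SE), 3.71-fold, with an adjusted p of 0.00383. The 2 probes listed at 1975 and 2004 each shared a run of 59 bases with it and gave 1.88 and 1.85. The listed start of 1975 does not match so long an overlap, so that position is uncertain.

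The COL5A1 probe at 495, a separate stretch, was less even. It read 0.06, -0.05 and 0.01 in sham and 3.01, 2.39 and 1.22 in ligated. The ligated rabbits were spread over almost 2 units of log2, with ligated 3 lowest. The change was 2.20 ± 0.44 (SE) and its adjusted p, 0.0327, was the highest of the 24. It lost its call without any 1 of sham 1, sham 2, sham 3, ligated 1 and ligated 2.

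COL5A2, the partner of COL5A1 in the type V helix, read 3.49, 3.76 and 3.74 in sham and 5.43, 5.43 and 5.23 in ligated at its brightest probe, at 4956. Its second probe, at 4885, read 2.12, 2.27 and 2.07 in sham and 4.12, 4.19 and 3.87 in ligated. At both, ligated 3 was the lowest ligated array and still above every sham array. The changes were 1.70 ± 0.18 (SE) and 1.91 ± 0.18 (SE), 3.25-fold and 3.75-fold, with adjusted p-values of 0.00563 and 0.00427.

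COL5A3, a minor type V chain, was read only after ligation. None of its 3 sham readings (0 of 3) and each of its 3 ligated readings stood well above background. The signals were -3.82, -6.15 and -5.14 in sham and -0.48, 0.24 and -1.01 in ligated. The sham values give no order, since none was well above background. The mean ligated signal was 13.5-fold higher than the sham bound. For each sham array this bound is the higher of the lowest signal well above background among all probes and the probe's own signal. In sham 1 the probe's own signal was the higher and still not well above background. The bound is therefore not the detection limit of this probe, and the fold is not a strict minimum. The adjusted p of the fit, 0.0102, is for a probe that had to differ to be tested and is no support. The fold holds for signals scaled to the 75th percentile. With normexp, which adds an offset of 50 to every signal, the COL5A3 log2 difference was 1.19, and 1.69 with spots of very high local background left out. With single arrays left out the fold over the bound lay between 10.8 (without ligated 2) and 16.6 (without ligated 3). Without both sham 1 and ligated 3 it was 18.8-fold.

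**Figure D3:**
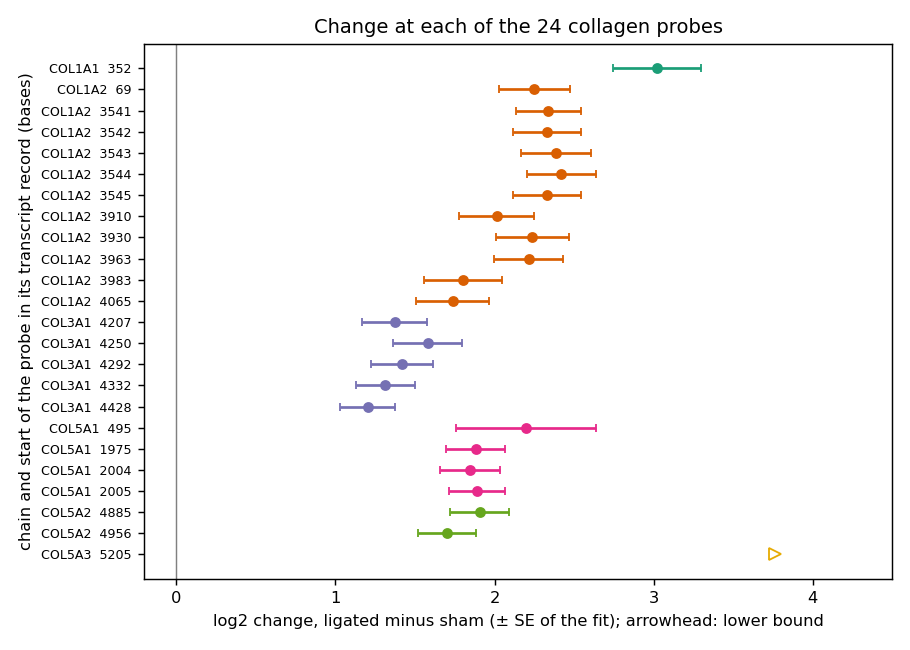
Log2 change (ligated minus sham, horizontal axis, ± SE of the fit) at each of the 24 collagen probes, named by chain and start in the transcript record. The 23 filled points lie between 1.20 at a COL3A1 probe and 3.02 at COL1A1. The arrowhead is the change of COL5A3 against its sham bound (3.76). Its probe was not well above background in sham, and the value is not a strict minimum.

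Without sham 1 and ligated 3 the 23 probes measured in both groups passed, with changes from 1.24 to 3.33. Over all tested probes 5893 passed in that fit, against 2290 with all arrays. The 2 arrays were chosen after the data were seen, so their removal is no separate support. At the brightest probes the change was then 3.33 for COL1A1, 1.53 for COL1A2, 1.38 for COL3A1, 1.89 for COL5A1 and 1.68 for COL5A2. Leaving out single arrays kept between 16 and 23 of the 23 probes past the threshold, and all 23 stayed higher in ligated. Over all tested probes 552 to 2269 passed in those fits. The background correction mattered more: with normexp on the raw spot signal 0 of 23 passed (limma, adjusted p 0.789 for each, 18 with an unadjusted p under 0.05), while all 23 were again higher, by 1.12 to 2.79. With spots of very high local background left out of the same correction, 23 of 23 passed. Over all tested probes 0 passed with normexp and 2378 with those spots left out.

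Pairs of chains were then compared by how far they changed relative to each other: the chains of type I, those of type V, and COL3A1 with COL1A1. For each array the log2 signal of 1 chain was taken from that of the other, and the shift of this difference between groups was tested with an exact two-sided permutation test over the 6 arrays. With 3 arrays against 3 the smallest p it can give is 0.1, so that no pair can pass 0.05. The p-values were adjusted over these 3 pairs.

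In the type I pair the change of COL1A1 was the larger in value. COL1A1 minus COL1A2 was -4.55, -5.22 and -4.70 in sham and -3.19, -3.12 and -4.30 in ligated. The groups did not overlap, although ligated 3 came close to sham 1. The shift was 1.29, or 2.44-fold, with an exact permutation p of 0.1, adjusted 0.15. It was positive with each of the 11 COL1A2 probes, from 0.60 to 1.29, and the brightest probe gave the highest value. With the mean of all COL1A2 probes it was 0.83. The COL1A1 probe gave the lower signal on every array, and whether the shift depends on signal level was not tested. At the brightest probes the shift ran from 1.08 to 1.67 when single arrays were left out, and was 1.80 without sham 1 and ligated 3.

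In the type V pair the shift was the smallest of the 3 pairs. COL5A1 minus COL5A2 was 2.51, 2.36 and 2.38 in sham and 2.48, 2.69 and 2.65 in ligated. Sham 1 lay above ligated 1, so the groups overlapped. The shift was 0.19 with an exact permutation p of 0.2, adjusted 0.2. Over the 8 combinations of their probes it ran from -0.06 to 0.50, and was positive in 5. Without sham 1 and ligated 3 it was 0.21. Overlap with 3 arrays per group does not show that the 2 chains changed alike.

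Between types, the change of COL3A1 was the smaller in value. COL3A1 minus COL1A1 was 5.09, 4.98 and 5.03 in sham and 2.80, 3.32 and 3.85 in ligated. Sham arrays were nearly equal, and every ligated array lay more than 1 unit below them. The COL3A1 probe gave the higher signal on every array, and whether the shift depends on signal level was not tested. The shift was -1.71 with an exact permutation p of 0.1, adjusted 0.15. It was negative with each of the 5 COL3A1 probes, from -1.82 to -1.44, and stayed between -1.97 and -1.45 without single arrays. Without sham 1 and ligated 3 it was -1.94.

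**Figure D4:**
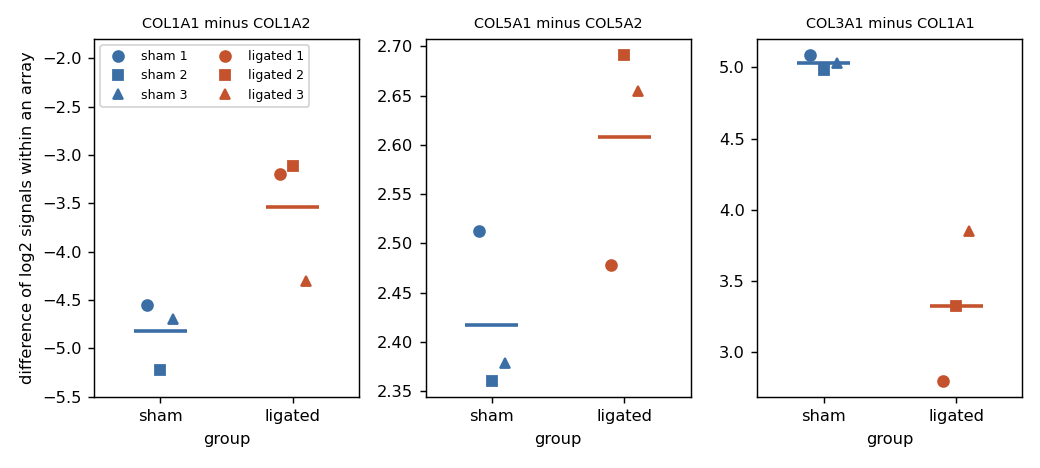
Difference of the log2 signals of 2 chains within an array (vertical axis, with a separate range in each panel), for 3 sham and 3 ligated arrays, with bars at group means. The groups are apart for COL1A1 minus COL1A2 and for COL3A1 minus COL1A1, and overlap for COL5A1 minus COL5A2, whose panel spans a much smaller range.

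Genes that act with these chains were taken from 6 lists, with the brightest tested probe for each gene. Of 62 listed genes 41 were tested, of which 18 rose, 0 fell and 23 did not pass. The median log2 change was 0.95, beside 0.01 over 7548 named genes, of which 8.92% passed and 6.23% passed upward. The count of 18 depended on the arrays: it was 5 without sham 2, 4 without sham 3, 7 without ligated 1, 6 without ligated 2 and 26 without sham 1 and ligated 3. With normexp it was 0 (limma, adjusted p), and 17 once spots of very high local background were left out of that correction.

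The other fibrillar collagens gave 0 of 2 tested genes past the threshold (limma), and 0 with an unadjusted p under 0.05. COL2A1, the cartilage chain, read 1.22, 1.32 and 0.13 in sham and 1.76 and 1.79 on ligated 1 and ligated 3. Ligated 2 was left out there as an outlier spot, and the change was 0.88 ± 0.41 (SE) with an adjusted p of 0.234. Of its 6 tested probes the other 5 were dimmer, and 4 of the 6 passed upward. COL27A1 was at -0.05 ± 0.35 (SE, adjusted p 0.941), and its sign turned without sham 1 (0.18), without ligated 3 (0.22), without both (0.45), with array weights (0.19) and with normexp (0.28).

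The enzymes and chaperones that modify and fold new chains had 7 of 14 tested genes that rose and 0 that fell, with a median of 0.93. PLOD1, a lysyl hydroxylase, rose by 1.60 ± 0.25 (SE, adjusted p 0.0168). The prolyl 3-hydroxylases P3H1 and P3H3 rose by 1.26 ± 0.23 (adjusted p 0.0251) and 1.06 ± 0.19 (adjusted p 0.0240). The endoplasmic reticulum chaperone HSPA5 rose by 0.95 ± 0.18 (adjusted p 0.0275). The 2 brightest genes that did not pass were PPIB, a prolyl isomerase, at 0.35 ± 0.28 (adjusted p 0.454), and the disulfide isomerase PDIA3 at 0.76 ± 0.34 (adjusted p 0.208). The 4 named rises each lost their call in at least 4 of the 6 fits without a single array, with adjusted p-values from 0.0508 to 0.124.

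Secretion and trimming of procollagen had 3 of 4 tested genes that rose, with a median of 1.71. PCOLCE and PCOLCE2 help the protease BMP1 to cut off the end of the procollagen chain. PCOLCE2 rose by 2.39 ± 0.24 (SE, adjusted p 0.00441) at the probe that stands for it, and passed at 5 of 5 probes. PCOLCE rose by 2.09 ± 0.28 (adjusted p 0.0100) and BMP1 by 1.32 ± 0.17 (adjusted p 0.00920). SEC24D, a coat protein of the vesicles that carry procollagen, was at 1.24 ± 0.42 (adjusted p 0.121), and passed without sham 1 and ligated 3 (adjusted p 0.00706). BMP1 lost its call without sham 2 (adjusted p 0.0581) or sham 3 (0.0527), and PCOLCE without sham 3 (0.0527).

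Cross-linking and fibril assembly had 7 of 11 tested genes that rose and 0 that fell, with a median of 1.82. LUM, a small proteoglycan on collagen fibrils, rose by 2.38 ± 0.18 (SE, adjusted p 0.00233). FN1, the fibronectin on which collagen is laid down, rose by 2.41 ± 0.24 (adjusted p 0.00441) and passed at 11 of 11 probes. The matricellular protein POSTN rose by 1.95 ± 0.27 (adjusted p 0.0111), and LOX, which cross-links collagen and elastin, by 1.82 ± 0.26 (adjusted p 0.0116). DCN, another fibril proteoglycan, was at 0.36 ± 0.21 (adjusted p 0.325) at its brightest probe, while 4 of its 6 probes passed. THBS1, a matricellular protein of the vessel wall, was at 1.11 ± 0.37 (adjusted p 0.116), and passed without ligated 3 (adjusted p 0.0287). LOX lost its call without sham 2 (0.0524) or sham 3 (0.0588) and POSTN without ligated 2 (0.0516), while LUM and FN1 kept theirs in each fit without a single array.

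Collagen receptors had 1 of 6 tested genes that rose and a median of -0.01. ITGA2, the alpha chain of a collagen-binding integrin, rose by 2.66 ± 0.55 (SE, adjusted p 0.0362). Its partner chain ITGB1 was at -0.32 ± 0.23 (adjusted p 0.410), and ITGA1, which forms the other main collagen-binding integrin of smooth muscle, at -0.56 ± 0.21 (adjusted p 0.143). The ITGA2 call was lost when any single array was left out, with adjusted p-values from 0.0553 to 0.0988 and changes from 2.11 to 3.01.

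Among regulators of the chains 0 of 4 tested genes passed (limma; 1 with an unadjusted p under 0.05), with a median of 0.42. The growth factor TGFB1 was at 0.63 ± 0.44 (SE, adjusted p 0.386), and passed without sham 1 and ligated 3 (1.35, adjusted p 0.0175). TGFB2 was at -0.04 ± 0.49 (adjusted p 0.965), and its sign turned without sham 1 (0.08), without ligated 3 (0.51), with array weights (0.32), under quantile normalisation and in the deposited values (0.033 in both).

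**Figure D5:**
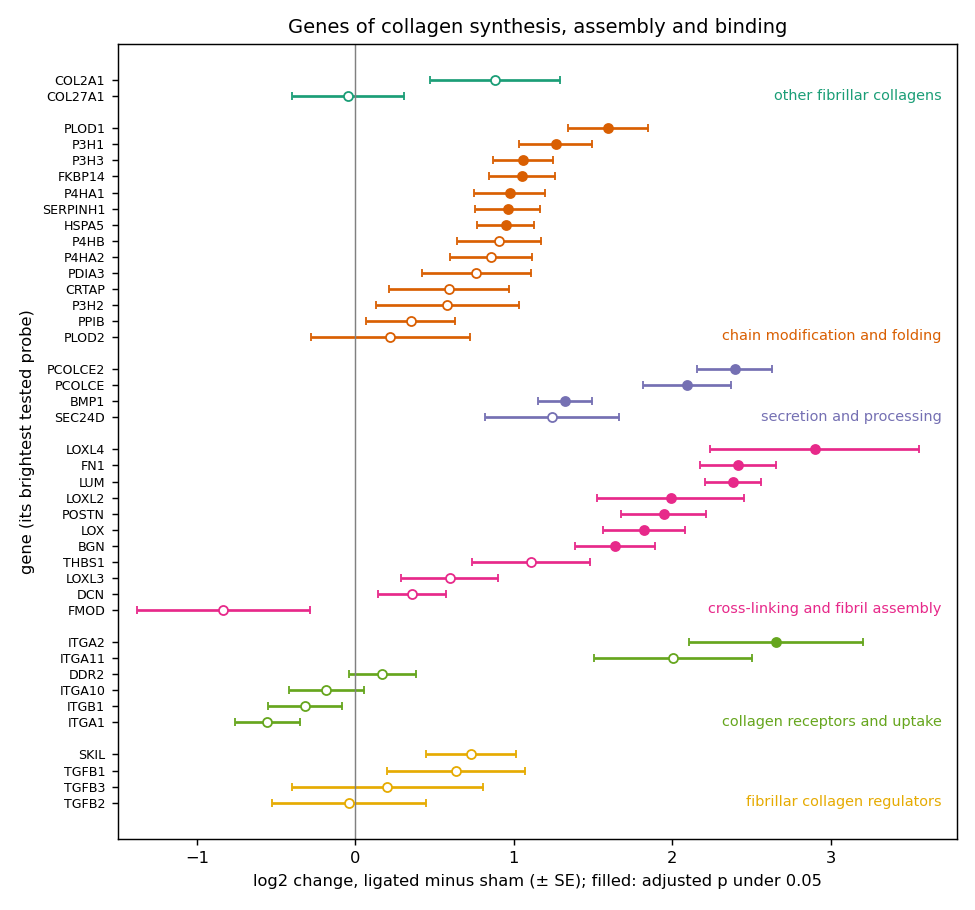
Log2 change (ligated minus sham, horizontal axis, ± SE of the fit) of the 41 tested genes of 6 lists on collagen synthesis, assembly and binding. Filled points passed an adjusted p of 0.05. The 18 filled points all lie above 0, and receptors and regulators hold 1 of them.

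Markers of other cells moved with the collagens in part. Of 12 fibroblast and meninges markers 8 were tested, of which 5 rose and 0 fell, with a median of 1.59. Over all named genes 6.23% rose and 2.69% fell. The summed level of the markers (log2 of the sum of linear signals) ran from 6.92 to 7.09 in sham and from 7.78 to 8.09 in ligated. The groups did not overlap, as was so at 34.7% of all tested probes. LUM and DCN stand in that list and among the fibril genes above. PDGFRA, PI16, SCARA5 and FOXC1 were not tested, and MFAP5 was read above background in 2 of 3 sham rabbits. The part of fibroblast RNA in the collagen changes was not tested.

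Smooth muscle markers were well above background on all 6 arrays for all 9 of 10 genes that had a probe. Of these 9, 2 fell, SMTN by 1.77 and DES by 1.11 in log2, and 7 did not pass, with a median of -1.01. Over all named genes 2.69% fell. The summed level of the 9 was 9.93 to 10.71 in sham and 8.64 to 9.80 in ligated. The groups again did not overlap, beside 34.7% of all tested probes without overlap. In the lists for endothelium, macrophages, neutrophils, lymphocytes, red cells, and neurons and glia, 0 genes passed at their brightest probe (limma). Of the tested genes 3 had an unadjusted p under 0.05, and the summed levels overlapped. Of the 11 neuron and glia genes 2 were tested. S100B was at -0.90 at its brightest probe (limma, adjusted p 0.0545) and passed downward at 3 of its 5 probes. SYT1 passed downward at 1 of 3, beside 8.36% of all tested probes that passed in either direction. The macrophage sum ran from 3.17 to 4.27 in sham and from 3.13 to 5.03 in ligated, and the red cell sum from 7.08 to 8.10 and from 4.32 to 8.74.

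The genes whose array pattern was most like that of the chains were found by Pearson r over the 6 arrays to the mean centred profile of the 5 chains read on all arrays. That profile was -1.03, -0.90 and -0.96 in sham and 1.02, 1.04 and 0.84 in ligated, so r reflects mainly the gap between the groups and is given as a description. Of 2075 candidate genes, 52 had an r of 0.98 or more. The 5 highest were LUM (0.999), PLK4 (0.997), BMP1 (0.997), DIAPH3 (0.996) and MAD2L1 (0.996). LUM read 3.35, 3.55 and 3.58 in sham and 5.96, 5.87 and 5.78 in ligated. BMP1 read 0.83, 0.81 and 0.91 in sham and 2.16, 2.28 and 2.08 in ligated. PLK4, DIAPH3 and MAD2L1 were higher in ligated by 1.74, 3.13 and 1.94 in log2. Genes chosen this way have groups that stand apart, so that gap is no further finding.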

How the data were processed

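Total RNA of basilar artery smooth muscle cells from 6 rabbits was labelled with Cy3 and read on one-colour arrays, per the labels. Agilent Feature Extraction 10.7 made the spot values, per the submitters' processing notes. Its processed signal, an intensity, had the background taken off and was detrended by array, per the file headers, with no scaling across arrays. The authors' deposited table of log2 values served as an alternative. Spot marks of 0 or 1 (outlier, well above background) are other values, per the file headers.

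Outlier spots were left out, log2 signals of repeated spots averaged, and the 75th percentile of each array subtracted. A probe was tested when well above background on at least 3 of 6 arrays (27408 of 43603 probes, of which 1564 passed upward and 726 downward; 1149 and 1052 with median centring). The ligated and sham groups were set against each other in limma 3.58.1 (R 4.3.3), two-sided, with Benjamini-Hochberg adjustment at 0.05. The fit was tested on simulated data. The labels give n = 3 rabbits per group, and the number of arrays limits the precision.

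Probes of partner genes were named from the files through a table of rabbit symbols (assembly mOryCun1.1, names only). It gave 22537 probes 1 symbol, 3 several and 21063 none. The members, the lists and the tests were chosen with earlier results of these data known. Every member was named; of each partner list, up to 4 genes past the threshold with the smallest p and up to 2 of the brightest others. The brightest tested probe stands for a chain or gene. The 5 most alike genes were taken among named genes well above background on all 6 arrays with an SD of at least 0.5 over arrays. Alternatives were normexp (offset 50, with and without spots of high background), quantile and median scaling, filters, the deposited values, other variance models, blocks, averaging and leaving out arrays.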

Additional observations from a re-analysis of the deposited data

How the results depend on the processing

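The 23 collagen probes well above background on all 6 arrays stayed higher in ligated under the 19 alternatives run. COL5A3, whose probe had to differ to be tested, is left out of these counts. Normexp leaves in spots of very high local background. With it 0 of these collagen probes, 0 partner genes and 0 of all probes passed (limma). Over all probes 615 then had an unadjusted p under 0.05, and the median change was 0.21. Without those spots 23 collagen probes, 17 partner genes and 2378 of all probes passed. The median change of all probes was -0.19 with median centring and 0.17 with no filter. Of the 23 collagen probes 16 passed with scan day as a block, the same fit as without sham 3, and 17 with sham 2 and sham 3 averaged. Leaving out single arrays gave 16 to 23. Partner genes past the threshold numbered 11 with median centring, 10 with no filter, 4 with the scan day block and 5 with the averaging; single arrays left out gave 4 to 15. Over all probes the count was 1524 with no filter, 5980 with array weights, 552 with the scan day block, 595 with the averaging and 5893 without sham 1 and ligated 3; single arrays left out gave 552 to 2269. The cause was not tested.

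Shared replicate numbers do not pair the rabbits (correlations of deviations 0.43, -0.57 and 0.58). With the replicate block 1295 probes, 20 of the 23 collagen probes and 13 partner genes passed, and the COL3A1 adjusted p was 0.0514 (limma). At their brightest probes COL1A1, COL5A1 and COL5A2 lost their calls only under normexp.

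Signs turned for COL27A1 (0.28 with normexp, 0.19 with array weights, 0.45 without sham 1 and ligated 3; -0.30 to 0.22 over single arrays left out) and for TGFB2 (0.033 with quantile scaling, 0.033 in the deposited values, 0.32 with array weights, 0.63 without sham 1 and ligated 3; -0.45 to 0.51 over single arrays left out). The shifts between chain pairs kept their sign in the settings run on the chains' brightest or averaged probes; other probe combinations of COL5A1 and COL5A2 gave either sign. The brightest probe outside clones could not be tried for COL1A1, which has a clone probe alone. Signal over background limits COL5A3 to a comparison with a sham bound.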
